A study of Mus musculus with 6 samples.

Results

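Basal8 was one of the 16 clusters that the study named in its single-cell RNA sequencing of mouse airway epithelium, and it was chosen here by the deposited cluster name of each cell. It held 458 of the 23871 cells, which was 1.92% of all cells. The cells were primary tracheal epithelial cells from C57BL/6 mice of 12 weeks, grown at an air-liquid interface, where the apical surface is exposed to air and the epithelium differentiates. Of the 6 mice, 3 were WT (WT mice 1, 2 and 3) and 3 were labelled DNAAF5 Mutant (MT1301, MT1306 and MT1383). The mutants were homozygous for a missense allele of Dnaaf5, a factor that assembles the dynein motors of motile cilia, and the allele was made by genome editing. The labels number the animals, and each library was taken as 1 animal and as the replicate.

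The tracheal epithelium is renewed by basal cells, which sit on the basement membrane, carry the keratins Krt5 and Krt14 and the transcription factor Trp63, and divide. Suprabasal cells lie above them on the way to luminal fates, lose Krt5 and Trp63, and in the mouse trachea can form stratified patches called hillocks that carry Krt4 and Krt13. Serpins of clade B are intracellular protease inhibitors, and several of them mark squamous and luminal epithelia.

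The number of Basal8 cells differed widely between mice. There were 60, 61 and 44 in WT mice 1, 2 and 3, and 209, 75 and 9 in mutant mice MT1301, MT1306 and MT1383. MT1301 alone gave 45.6% of the cluster, and levels are therefore given per mouse with each mouse counted equally unless stated. Shares of cells with a UMI, medians per cell and ranks of summed gene lists pool the cells of all mice, MT1383 included. The 9 cells of MT1383 held 245130 UMIs (unique molecular identifiers, which count captured RNA molecules), and this mouse was left out of means and fits, which used 5 mice, 3 WT and 2 mutant. The other 5 mice had between 1779438 and 9399831 UMIs in the cluster. Of the Basal8 cells, 4 had a barcode that also occurred in another library.

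Basal8 cells were rich in RNA. Their median of 42984.5 UMIs was the highest of the 16 clusters, which otherwise ranged from 10197 to 38781. Their median share of mitochondrial UMIs was 13.9%, against 8.73% to 14.1% in the other basal clusters. A share of 2.62% of Basal8 cells had more than 7500 detected genes, the study's stated upper limit, against 2.75% of the other cells. The part of this depth and mitochondrial share in the levels below was not tested. Of the 458 cells, 456 fell into a single cluster of the finer partition that was deposited with the names, which held 463 cells in all.

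The promoters of 5 genes that the results turn on are shown first. They are 2 serpins, a uroplakin-like gene, a tight junction gene (Cgn) and a mucin of the apical membrane (Muc1), all described below. Each runs from 250 bases before to 50 bases after the RefSeq start site (build GRCm38.p6, 300 bases, sense strand of the gene). Capitals mark matches on either strand to TATAAA in Serpinb3a and Muc1, to the AP-1 motif TGANTCA in Serpinb11, and to the grainyhead motif AACCNGTT in Upk3bl, Cgn and Muc1. Serpinb3a lies at chr1:107052254-107052553 on the minus strand, Serpinb11 at chr1:107362064-107362363 on the plus strand, Upk3bl at chr5:136057017-136057316 on the plus strand, Cgn at chr3:94786433-94786732 on the minus strand and Muc1 at chr3:89228806-89229105 on the plus strand.
Serpinb3a: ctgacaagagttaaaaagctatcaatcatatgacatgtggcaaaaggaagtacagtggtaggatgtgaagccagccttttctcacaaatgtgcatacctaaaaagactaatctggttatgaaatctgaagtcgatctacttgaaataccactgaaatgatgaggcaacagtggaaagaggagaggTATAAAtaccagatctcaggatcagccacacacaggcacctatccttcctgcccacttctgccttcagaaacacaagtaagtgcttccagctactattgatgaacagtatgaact
Serpinb11: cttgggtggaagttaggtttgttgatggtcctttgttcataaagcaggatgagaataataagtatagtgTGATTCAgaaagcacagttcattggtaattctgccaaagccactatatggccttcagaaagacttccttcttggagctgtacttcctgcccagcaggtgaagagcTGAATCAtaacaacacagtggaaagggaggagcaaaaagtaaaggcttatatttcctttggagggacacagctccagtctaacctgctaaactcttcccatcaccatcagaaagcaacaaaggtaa
Upk3bl: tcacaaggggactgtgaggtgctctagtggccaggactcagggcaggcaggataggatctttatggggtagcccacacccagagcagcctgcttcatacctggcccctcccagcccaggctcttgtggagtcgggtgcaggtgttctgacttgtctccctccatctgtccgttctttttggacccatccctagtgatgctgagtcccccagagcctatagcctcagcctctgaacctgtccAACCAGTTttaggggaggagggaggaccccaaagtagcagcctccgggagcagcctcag
Cgn: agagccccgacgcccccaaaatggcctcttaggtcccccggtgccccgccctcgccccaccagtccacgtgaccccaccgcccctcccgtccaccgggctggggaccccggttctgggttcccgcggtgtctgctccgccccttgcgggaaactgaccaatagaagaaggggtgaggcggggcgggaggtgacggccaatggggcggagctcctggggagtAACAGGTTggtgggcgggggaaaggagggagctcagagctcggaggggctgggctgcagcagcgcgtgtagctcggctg
Muc1: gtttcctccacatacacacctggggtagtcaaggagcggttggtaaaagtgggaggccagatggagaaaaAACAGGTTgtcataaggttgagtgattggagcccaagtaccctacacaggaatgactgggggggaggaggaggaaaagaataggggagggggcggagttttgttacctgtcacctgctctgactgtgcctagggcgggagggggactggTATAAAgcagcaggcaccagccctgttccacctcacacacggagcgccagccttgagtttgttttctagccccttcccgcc
In all 32851 promoters of the table, TATAAA was present in 13.6%, TGANTCA in 7.81% and AACCNGTT in 2.09%. The genes and the 3 motifs were chosen after a search of 9 motifs. The others were ACGTG (19.6% of promoters), CCGGAA (14.9%), CCACCC (31.5%), TGACNNNGC (12.4%), TTGCGCAA (0.183%) and TTGGCNNNNNGCC (1.38%). No 2 of the 3 marked motifs overlapped in these 5 sequences. Of the 20 genes that stood highest in Basal8, 17 had a promoter in the table, and 2 of those held TGANTCA, 2 held TATAAA and 0 held AACCNGTT. A match describes the letters and is not a binding site.

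The 5 genes given as markers of the cluster were Serpinb3a, the glucose transporter Slc2a3, Upk3bl, the lipid-remodelling gene Cwh43 and Aim2, a sensor of cytosolic DNA. Because the clusters were made from the same genes, the levels are a description and carry no test. Serpinb3a was 21.8, 11.2, 7.87, 12.7 and 9.37 CPM (UMIs of a gene per 1e+06 UMIs of the same cells) in WT mice 1, 2 and 3 and mutant mice MT1301 and MT1306. In the cells of Basal1 to Basal7 together it was 1.79 ± 1.21 CPM (SD, n = 5 mice), against 12.6 ± 5.44 in Basal8. The mice did not overlap between the 2 populations, and Basal8 had the highest level of the 16 clusters. The level was low all the same, with 244 Serpinb3a UMIs in the whole cluster and 0 CPM in the 9 cells of MT1383. Serpinb3a has close paralogs, and its longest transcript was 93.1% identical to that of Serpinb3b over 1617 aligned bases and 92.1% identical to that of Serpinb3c, so reads may have been shared between them. Serpinb3c had 0 UMIs in Basal8. Serpinb3b and another paralog, Serpinb3d (88.9% identical), were not among the 20483 genes counted, so their levels are unknown.

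Slc2a3 did not mark the cluster in every mouse. It was 61.0 CPM in WT mouse 1, 1.40 in WT mouse 2, 6.18 in WT mouse 3, 1.60 in MT1301 and 2.60 in MT1306. WT mouse 1 gave 78.6% of its UMIs in Basal8, and without that mouse the mean was 2.95 ± 2.22 CPM (SD, n = 4), while over the same 4 mice Secretory2 was at 6.14 ± 5.20 CPM and Basal6 at 4.61 ± 5.27 CPM. Upk3bl, a relative of the uroplakins that plate the bladder surface, was 468, 344 and 229 CPM in the WT mice and 822 and 350 in the mutants. It was higher than in the other basal cells of the same mouse in 5 of 5 mice, but its mean of 443 ± 228 CPM had rank 3 among the clusters and the highest was Basal5 with 527 CPM. Cwh43 was 70.1 ± 13.9 CPM and second to Basal4 with 71.4 CPM. It was 34.2 ± 20.3 CPM in the other basal cells. Basal8 was higher in 4 of 5 mice and lower in WT mouse 1 (63.1 against 66.9 CPM). Aim2 was 10.5 ± 5.65 CPM, against 3.41 ± 0.666 in the other basal cells, and the mice did not overlap. In Basal5, the next cluster, Aim2 was 8.37 ± 3.93 CPM (SD, n = 4 mice), and Basal8 was higher in 3 of those 4. An Aim2 UMI was present in 5.24% of Basal8 cells and 3.05% of Basal5 cells thinned to 5000 UMIs (34.1% and 14.2% without thinning), and in 0.258% of Multiciliated3 cells (1.44%). Serpinb3a was higher than in Basal5 in 4 of 4 mice. Serpinb3a and Aim2 were thus apart from the other basal clusters as a whole in every mouse, but Aim2 did not set Basal8 apart from Basal5.

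**Figure D1:**
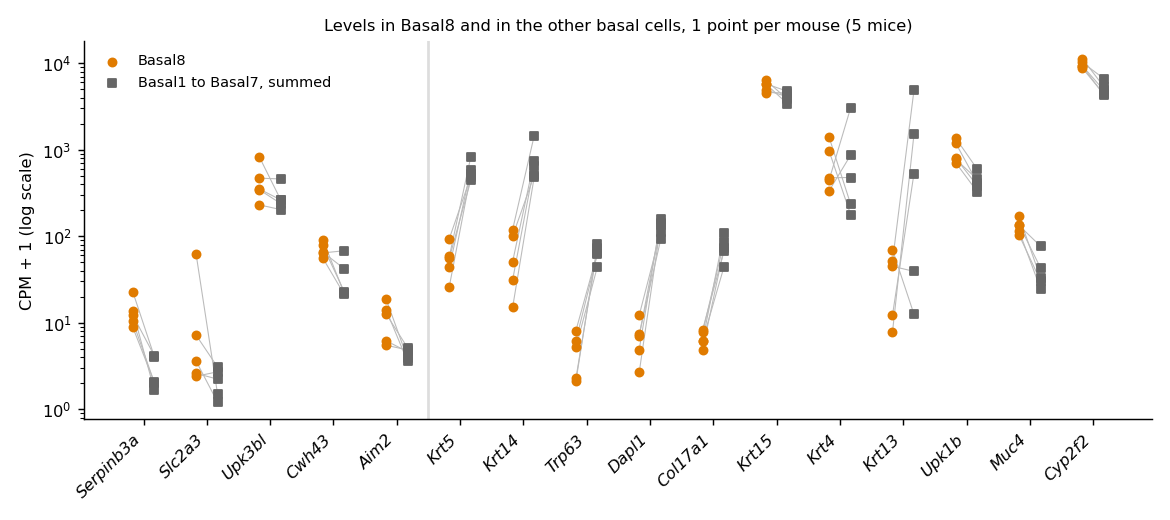
The plot shows CPM + 1 on a log axis for 16 genes, with 1 circle per mouse for Basal8, 1 square per mouse for the other basal cells together and a line joining the same mouse (5 mice). Serpinb3a and Aim2 lie higher in Basal8 in every mouse, Krt5, Krt14, Trp63, Dapl1 and Col17a1 lie lower in every mouse, and Krt4 and Krt13 overlap.

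After each cell was thinned to 5000 UMIs, a Serpinb3a UMI was present in 6.33% of Basal8 cells, 1.01% of Secretory2 cells and 0.111% of Multiciliated3 cells, a ciliated type that should lack it. Without thinning the shares were 22.5%, 4.70% and 0.737%, at median depths of 42984.5, 31434.5 and 26359.5 UMIs. Cwh43 gave 29.9% of thinned Basal8 cells, against 7.03% in Basal5, 2.56% in Basal2 and 6.64% in Multiciliated3 (79.7%, 26.5%, 9.08% and 26.2% without thinning). Basal4, the cluster with the highest Cwh43 level, was not counted in this way. Slc2a3 gave 3.06% of thinned Basal8 cells and 2.02% of Secretory2 cells (8.73% and 7.04% without thinning), and in 1 mouse it reached 18.3% of Basal8 cells. Most Basal8 cells had no UMI of Serpinb3a or Slc2a3 at this depth, which does not show that they lacked the RNA.

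Basal8 carried little of the basal cell program. Krt5 was 42.6, 93.1 and 57.3 CPM in WT mice 1, 2 and 3 and 25.2 and 54.9 in MT1301 and MT1306, and its mean of 54.6 ± 24.97 CPM stood against 574 ± 154 in the other basal cells. Krt14 was 62.5 ± 44.9 against 763 ± 396 CPM, and Trp63 was 3.79 ± 2.58 against 63.9 ± 13.4 CPM. Both were lower in every mouse without overlap, and all 3 genes were lowest in Basal8 among the 8 basal clusters. The same held for Col17a1 and Lamb3, parts of the anchorage to the basement membrane, at 5.63 ± 1.35 against 74.9 ± 23.9 CPM and 7.18 ± 2.20 against 76.0 ± 16.8 CPM. Dapl1 was 5.86 ± 3.55 against 128 ± 26.4 CPM.

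Of 16 basal cell genes, 14 were lower than in the other basal cells of the same mouse in all 5 mice, and the median difference was -2.98 on the log2(CPM + 1) scale. Over the 9889 genes with a mean of at least 5 CPM in either population, 24.2% were lower in all 5 mice, 13.8% were higher in all 5, and the median difference was -0.08. With the mean log-normalized value per cell in place of summed counts, 1834 of these genes were higher in every mouse and 1974 lower, against 1367 and 2396, so the higher genes made up 48.2% in place of 36.3% of the genes that moved 1 way. The 1 basal gene that was higher in every mouse was Krt15, a basal and progenitor keratin. Krt15 was 4917, 6373 and 4585 CPM in the WT mice and 5764 and 5787 CPM in the mutants, against 4123 ± 537 CPM in the other basal cells. The other exception was the podoplanin gene Pdpn, which was lower in 3 of 5 mice. In thinned cells, a Krt5 UMI was present in 10.9% of Basal8 cells against 81.3% in Basal3 and 2.06% in Multiciliated3 (26.4%, 90.7% and 7.49% without thinning), whereas Krt15 was present in 98.9% of Basal8 cells (99.6% without thinning), against 20.9% in Multiciliated3 (55.7%).

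Among genes of at least 50 CPM in the other basal cells of every mouse, the 10 that stood lowest in Basal8 included 4 of the basal genes. Trp63, Snai2, Dlk2 and Col17a1 did not reach 50 CPM in every mouse and lay as low, with mean differences of -3.93, -3.96, -3.93 and -3.48 on the log2(CPM + 1) scale. Fn1, the matrix protein fibronectin, was 0.168 ± 0.241 CPM in Basal8 against 127 ± 71.9 in the other basal cells. The actin-binding tropomyosin Tpm2 was 8.74 ± 5.16 against 102 ± 31.0 CPM, the laminin receptor Bcam 16.3 ± 7.49 against 88.6 ± 21.1 CPM, and the hyaluronan receptor Cd44 25.4 ± 17.9 against 87.6 ± 21.4 CPM. Also among the 10 were Dapl1, Krt14, Krt5, Lamb3, the interferon-inducible Ifi202b and the secretoglobin Scgb3a2, and all but Scgb3a2 were lower without overlap between the mice. Scgb3a2 was lower in 4 of 5 mice. The 10 were chosen as the lowest against the other basal cells, so their lack of overlap is not a separate result. Of the 9889 genes above, 1128 were lower and 583 higher without overlap.

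The name suprabasal-like was met in part. Krt4 was 448, 963 and 335 CPM in the WT mice and 1390 and 473 CPM in the mutants, and in the other basal cells it ranged from 176 to 3059 CPM. It had rank 3 among the clusters, after Basal4 with 3967 CPM and Basal5. Krt13, the partner of Krt4 in hillocks, was 36.3 ± 26.6 CPM in Basal8, against 11.5 to 4888 CPM in the other basal cells. Of 16 suprabasal and hillock genes with a mean of at least 5 CPM, 1 was higher in all 5 mice and 3 were lower, with a median difference of -0.37. Over all genes, 13.8% were higher and 24.2% lower in all 5 mice. Neither these counts nor those of the cornified envelope genes below stood above those shares. The gene that was higher was Notch3, a receptor of early suprabasal cells, at 23.0 ± 6.44 against 13.6 ± 5.60 CPM. The 3 that were lower were Krt16, Grhl3 and Anxa8. Of 9 cornified envelope genes, 0 were higher in all 5 mice and 2 were lower, the envelope protein Lor and the crosslinking enzyme Tgm1, and Tgm3 had 1 UMI in Basal8. The cells are therefore called Basal8 here and given no cell type name.

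**Figure D2:**
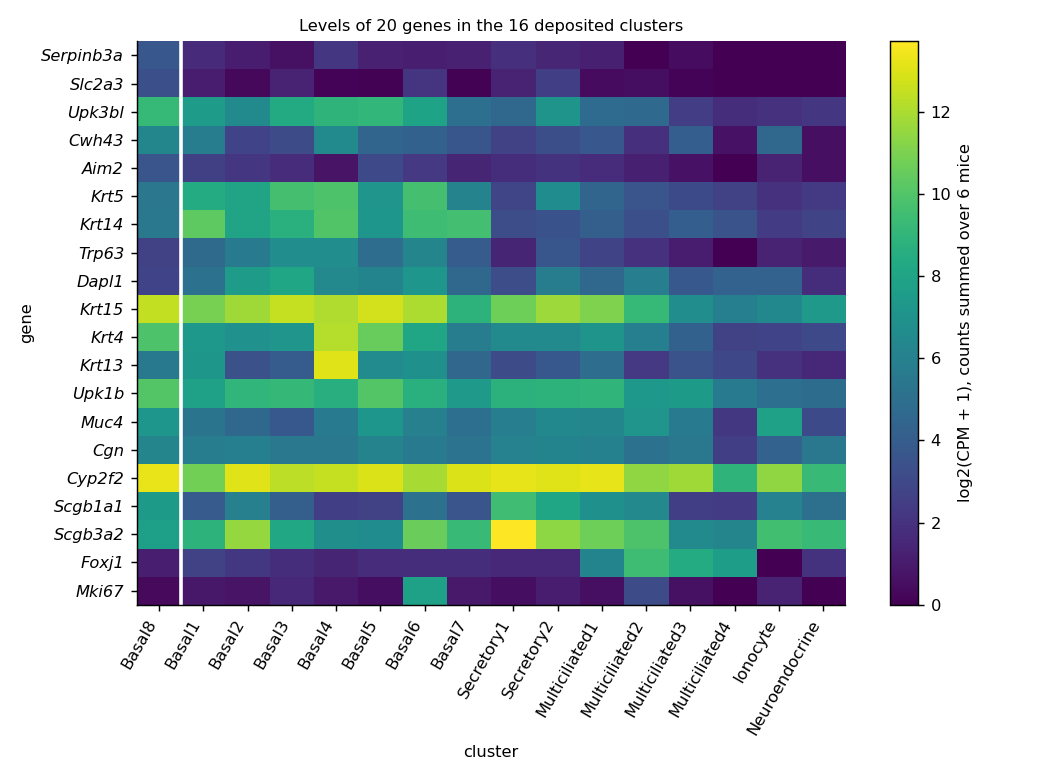
The heat map shows log2(CPM + 1) of 20 genes (rows) in the 16 clusters (columns, Basal8 first), from counts summed over the 6 mice. Basal8 shares high Krt15, Upk1b and Cyp2f2 with Basal5, has less Krt4 than Basal4 and Basal5, and has the least Krt5, Krt14 and Trp63 of the basal columns.

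Across all 20483 genes, the cluster profile was closest to Secretory2 (Pearson r = 0.989 of log2(CPM + 1) values), Basal5 (0.988) and Basal2 (0.986), and the order below Secretory2 changed to Basal2 (0.988) and Basal5 (0.987) when mice were weighted equally. These correlations are across genes of shared libraries and are a description. Cyp2f2, a cytochrome P450 of club cells, was 10212, 8780 and 9270 CPM in the WT mice and 9339 and 11329 CPM in the mutants. It did not overlap with the 4302 to 6640 CPM of the other basal cells, and its mean of 9786 CPM was the highest of the clusters, next to 9394 CPM in Secretory1. The club cell product Scgb1a1 was 1149 CPM in WT mouse 1 but 67.8, 15.7, 63.5 and 2.08 CPM in WT mice 2 and 3, MT1301 and MT1306. The airway antimicrobial protein Bpifa1 was likewise 4522 CPM in WT mouse 1 and 48.9 to 579 CPM in the other mice. WT mouse 1 stood apart in Slc2a3, Scgb1a1 and Bpifa1, and the part of secretory RNA in this was not tested. Of 9 secretory genes, 1 was higher than in the other basal cells in all 5 mice (Cyp2f2) and 1 was lower (Scgb3a1). Over all genes, 13.8% were higher and 24.2% lower.

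Genes of apical membrane mucins were higher in Basal8 than in the other basal clusters as a whole, but not than in each of them. All 3 transmembrane mucins with a mean of at least 5 CPM were higher than in the other basal cells in 5 of 5 mice. So were 13.8% of all genes. Muc4 was 130.5 ± 25.2 against 40.5 ± 20.7 CPM, Muc1 was 182 ± 72.5 against 68.1 ± 25.4 CPM, and Muc16 was 36.2 ± 9.68 against 22.6 ± 17.1 CPM. For Muc4 and Muc1 the mice did not overlap. In Basal5, over 4 mice, Muc4 was 130.4 ± 55.5 CPM, Muc1 122 ± 80.2 CPM and Muc16 57.9 ± 24.8 CPM, and Basal8 was higher in 2, 4 and 1 of those mice. By the summed level of the 6 mucins, in counts pooled over all mice, Basal8 had rank 6 of the 16 clusters, and none of the 3 counted was highest in it. Upk1b, a tetraspanin of the urothelial plaque, was 1358, 707 and 801 CPM in the WT mice and 1191 and 774 CPM in the mutants. It was 435 ± 101 CPM in the other basal cells, without overlap, and 964 CPM in Basal5, just under the 966 ± 289 of Basal8.

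Of 13 tight junction genes, 5 were higher in all 5 mice and 1 was lower, with a median difference of 0.22, beside 13.8% higher and 24.2% lower over all genes. The summed level of the 14 genes listed lay below that of the other basal cells in 4 of 5 mice and above it in WT mouse 1 (2041 against 1468 CPM), with means of 1723 and 1690.1 CPM. Cgn, the junctional adaptor cingulin, was 77.3 ± 8.51 against 49.9 ± 5.32 CPM, and Tjp3, a scaffold of the same junction, was 71.5 ± 10.4 against 37.1 ± 9.57 CPM, both without overlap. The scaffold Tjp1 was 88.7 ± 10.1 against 70.0 ± 6.68 CPM and the highest of the clusters by mean. Cldn23, a claudin, and Marveld3 made up the 5. The gene that was lower was the junctional adhesion molecule F11r, at 103 ± 19.6 against 146 ± 6.79 CPM.

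Notch ligands were low. Jag2 was 2.23 ± 1.63 CPM in Basal8 against 40.6 ± 11.02 in the other basal cells, Dll1 was 1.11 ± 0.490 against 13.1 ± 3.31, and Jag1 was 12.9 ± 1.53 against 41.5 ± 12.4 CPM. Notch1 was lower as well, at 17.4 ± 4.14 against 45.6 ± 4.45 CPM, whereas Notch2 and Notch3 were higher in 5 of 5 mice. In all, 5 of 9 Notch pathway genes were lower in every mouse and 2 were higher, beside 24.2% and 13.8% of all genes. Of 12 cell cycle genes, 11 were lower in every mouse, and their summed level was 69.7 to 91.6 CPM in Basal8 against 166 to 505 CPM in the other basal cells. Foxj1, the regulator of motile cilia, had a UMI in 0 of 458 thinned Basal8 cells, which by counting error allows up to 0.655% of cells with a UMI at that depth, and in 77.2% of thinned Multiciliated3 cells. Without thinning the shares were 5.24% and 98.5%, with 5.38% in Basal3, so the 0 does not show that the cells lacked Foxj1 RNA. The summed level of 10 genes of non-epithelial cells, in counts pooled over all mice, was the lowest of the 16 clusters.

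**Figure D3:**
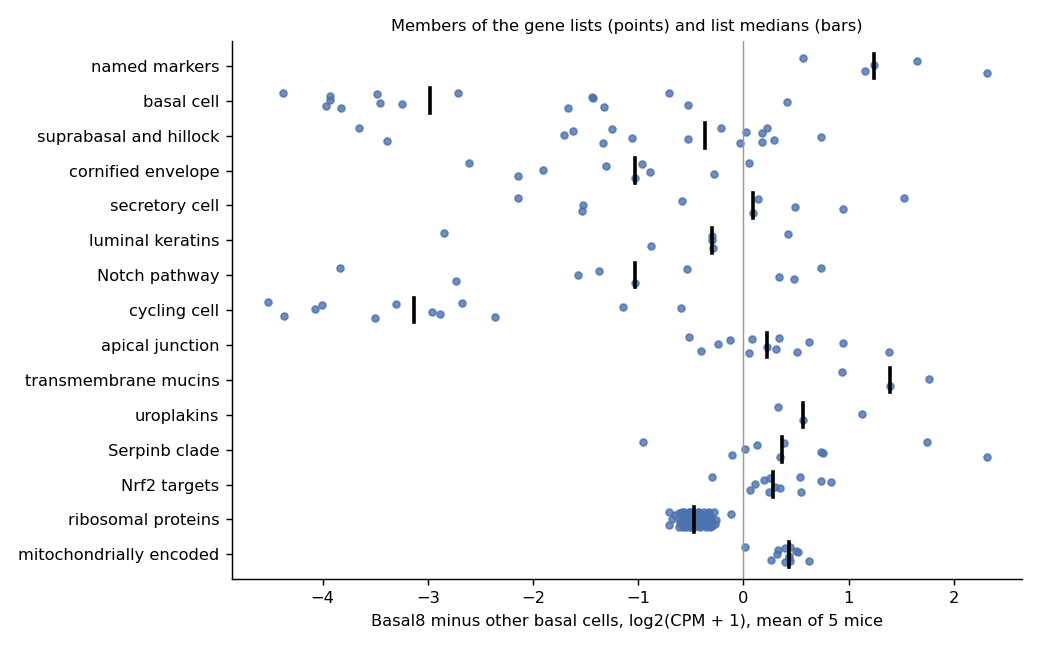
Each point is a gene with a mean of at least 5 CPM, placed by its log2(CPM + 1) level in Basal8 minus that in the other basal cells (mean of 5 mice), in rows by gene list, with a bar at the list median. Basal cell and cycling genes lie at medians of -2.98 and -3.13, transmembrane mucins at 1.39, and ribosomal protein genes in a narrow band around -0.47.

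The 20 genes that exceeded the next cluster by the widest margin, among genes of at least 20 CPM in every mouse, did so by little. The margin was 0.22 to 0.72 on the log2(CPM + 1) scale of counts summed over all mice, in which MT1301 weighs most. With mice weighted equally 19 of the 20 stayed first (Sesn2 did not), and the margin ran from 0.05 for Vps37b to 0.63 for Pmp22. The values below weight mice equally. The protein kinase C isoform Prkch was 36.9 ± 16.9 CPM (next Secretory2, 24.9 CPM), the sialyltransferase St3gal4 130 ± 28.8 CPM (Secretory1, 83.6 CPM) and Mab21l4 105 ± 35.5 CPM (Multiciliated2, 68.5 CPM). Plekhh1 was 61.9 ± 10.4 CPM (Secretory2, 43.5 CPM). Fgfbp1, a carrier of fibroblast growth factors, was 961 ± 175 CPM (Basal5, 894 CPM), and the cyclin Ccnd2 was 831 ± 234 CPM (Basal1, 652 CPM). The myelin and epithelial membrane gene Pmp22 was 236 ± 40.2 CPM, against 152 CPM in Secretory2. Also among them were the mechanosensitive channel Piezo1, the brain-type glycogen phosphorylase Pygb and the respiratory chain component Ndufa4. Against the other basal cells, 19 of the 20 were higher in every mouse, which their choice as highest in Basal8 favours. Of genes with at least 20 CPM in every one of the 6 mice, none exceeded every other cluster by a log2 difference of more than 0.72 in the summed counts. Genes below that floor are not covered. Serpinb3a was 1 of them, at 12.4 CPM in the summed counts against 3.47 CPM in Basal4, the next cluster.

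Within Basal8, pairs of genes were compared cell by cell in thinned data. A Krt4 UMI was present in 377 of 458 cells, in 84.0% of the cells with Krt5 counts and 82.1% of those without. Upk3bl was present in 78.2% of the cells with Krt4 counts and 56.8% of those without. Scgb1a1 was present in 7.69% of the cells with Krt4 counts and 11.1% of those without. These shares pool the cells of all mice, which differed in Krt4 (54.5% to 96.7% of cells by mouse, among mice with at least 10 cells).

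The first question on genotype was whether mutant cultures held more or fewer Basal8 cells. Basal8 made up 2.11% (95% exact interval 1.61% to 2.71%), 1.26% (0.965% to 1.61%) and 1.59% (1.16% to 2.13%) of the cells of WT mice 1, 2 and 3. In the mutants it made up 5.18% (4.52% to 5.91%), 2.81% (2.21% to 3.50%) and 0.134% (0.0613% to 0.254%) of the cells of MT1301, MT1306 and MT1383. The intervals cover counting error only. The WT mice lay between the mutants, of which 2 were above all WT mice and 1 below. The mean was 2.71% ± 2.53 in mutants and 1.65% ± 0.430 in WT mice (SD, n = 3 each), a difference of 1.06 percentage points that was not larger than the spread (two-sided exact permutation test, p = 0.6, smallest possible 0.1).

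Among the basal cells of each mouse, Basal8 made up 3.27%, 3.21% and 2.90% in WT mice 1, 2 and 3 and 11.5%, 6.13% and 0.317% in MT1301, MT1306 and MT1383. The WT mice differed little, at 3.13% ± 0.198, whereas the mutants ranged over 5.98% ± 5.59 (two-sided exact permutation test, p = 0.5, smallest possible 0.1). MT1383 had the most cells and the lowest median depth of the 6 libraries (6710 cells, 21327.5 UMIs), and whether this bears on its share was not tested.

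**Figure D4:**
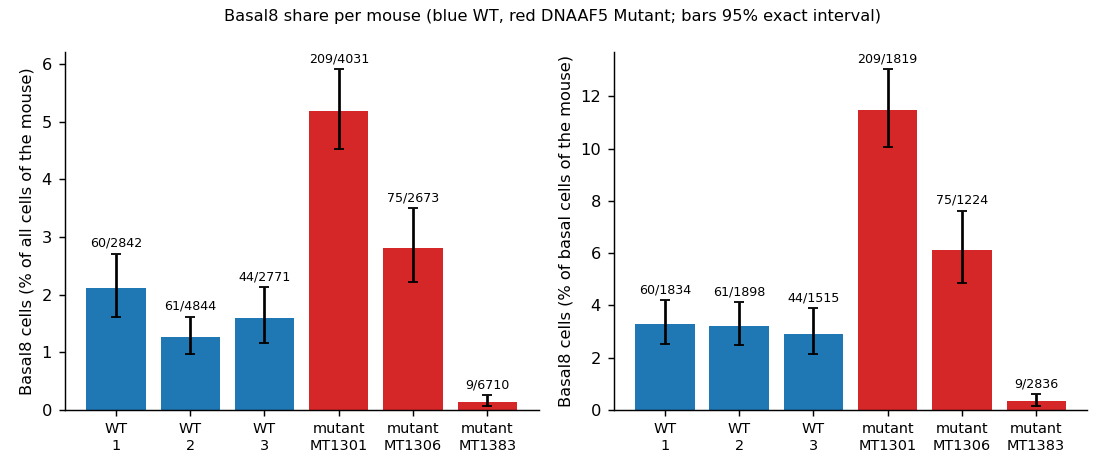
Bars give the share of Basal8 cells in percent for each mouse, of all cells (left) and of basal cells (right), with the 95% exact binomial interval and the counts above each bar; blue is WT and red is DNAAF5 Mutant. The 3 WT mice sit close together, MT1301 and MT1306 lie above them and MT1383 below.

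The second question was whether gene levels within Basal8 differed by genotype. The targeted gene Dnaaf5 was 4.26, 2.81 and 7.31 CPM in WT mice 1, 2 and 3, 6.49 and 7.54 CPM in MT1301 and MT1306, and 0 in the 9 cells of MT1383. The log2 fold change was 0.64 ± 0.38 (SE, limma, adjusted p = 0.772). A missense allele need not lower its RNA, so this does not check the labels.

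Of 9789 genes tested, 0 were called higher (0% of those tested) and 0 lower (0%) in mutants at an adjusted p of 0.05 (limma voom, 3 WT and 2 mutant mice), while 644 had an unadjusted p under 0.05. The smallest adjusted p was 0.436. With MT1383 included 0 genes were called of 9459, and 656 had an unadjusted p under 0.05. In the other basal cells of the same 5 mice 0 of 14744 genes were called by the same fit, and 275 had an unadjusted p under 0.05. For the difference between the genotype effect in Basal8 and that in the other basal cells, 0 of 9789 genes (0%) were called, with 534 at an unadjusted p under 0.05. Without WT mouse 1, 11 genes were called, of which 8 were lower in mutants, and Krt14 was 1 of them (log2 fold change -2.21, limma adjusted p = 0.044). Krt14 with all 5 mice gave -1.83 ± 0.41 (SE, limma, adjusted p = 0.505). Without MT1306, 2 genes were called, the nuclear receptor Nr4a2 and the lipid droplet gene Hilpda, both higher in mutants.

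No gene passed the test, so the 5 genes of lowest p in each direction among those without overlap are given as values. Without overlap, 7.27% of all genes tested were higher and 14.5% were lower in the 2 mutants. The genes were chosen for this, so their lack of overlap in the 5 mice is not a separate result. How many of all genes separate the genotypes with MT1383 included was not counted. Wdfy1, an endosomal protein, was 19.2, 14.5 and 12.9 CPM in WT mice 1, 2 and 3 and 43.4 and 55.4 CPM in MT1301 and MT1306. MT1383, which was not in the fit, had 69.4 CPM, so all 3 mutants were above all 3 WT mice. Its log2 fold change was 1.67 ± 0.24 (SE, limma, adjusted p = 0.436), and in the other basal cells it was 1.64 ± 0.18. Glutamine synthetase (Glul) was 54.2, 42.1 and 32.6 CPM in the WT mice and 103 and 161 CPM in the mutants of the fit, but 44.9 CPM in MT1383. Its log2 fold change was 1.66 ± 0.26 (limma, adjusted p = 0.436), against 0.18 ± 0.40 in the other basal cells, and the difference of 1.49 ± 0.27 did not pass the test (limma, adjusted p = 0.880). The others with higher values were the transcription factor Hlf, the cationic amino acid transporter Slc7a1 and the microsomal glutathione transferase Mgst2, with log2 fold changes of 1.35, 1.02 and 1.77. MT1383 lay among the WT mice for Glul, Hlf and Mgst2, and above them for Slc7a1.

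In the other direction, Slfn2, an interferon-inducible regulator of growth, was 21.3, 18.7 and 27.0 CPM in WT mice 1, 2 and 3 and 7.87 and 7.28 CPM in MT1301 and MT1306, with 8.16 CPM in MT1383. The 2 mutants of the fit were below all 3 WT mice, and the log2 fold change was -1.46 ± 0.23 (SE, limma, adjusted p = 0.436). Carbonyl reductase (Cbr1) was 151, 143 and 160 CPM in the WT mice and 78.8, 87.9 and 102 CPM in the 3 mutants, also without overlap. Arginase (Arg1) was 27.7, 42.6 and 37.1 CPM in the WT mice and 15.6, 11.7 and 16.3 CPM in the mutants. The scramblase family gene Plscr2 was 29.9, 17.3 and 26.4 CPM against 8.19, 10.1 and 8.16 CPM. The value of MT1383 was 2 UMIs for both Slfn2 and Plscr2, where the WT mean would give 5.48 and 6.01 UMIs, and 4 UMIs for Arg1. For each of these 3 the adjusted p was 0.436 or above.

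**Figure D5:**
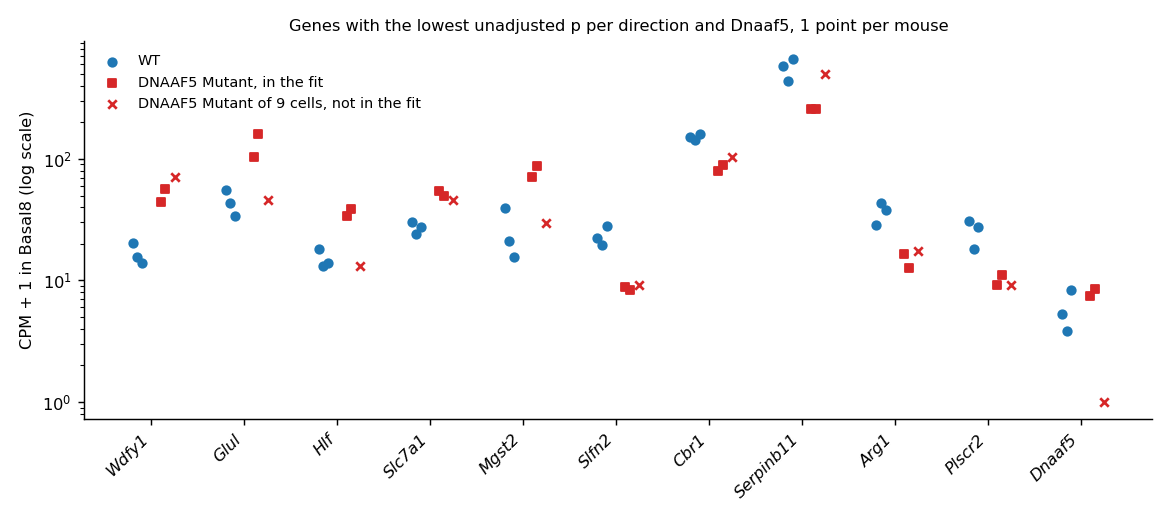
CPM + 1 in Basal8 on a log axis, 1 point per mouse, for the 10 genes of lowest unadjusted p and Dnaaf5; blue circles are WT, red squares the mutants of the fit and red crosses MT1383 with 9 cells. The points of Wdfy1, Slc7a1, Slfn2, Cbr1, Arg1 and Plscr2 separate all 6 mice by genotype, where the cross of Slfn2 and of Plscr2 is 2 UMIs, whereas the cross lies among the WT mice for Glul, Hlf, Mgst2 and Serpinb11.

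Serpinb11 had the second highest level difference of its clade against the other basal cells. It was 582, 436 and 669 CPM in WT mice 1, 2 and 3 and 254 and 256 CPM in MT1301 and MT1306, and 502 CPM in MT1383. The 2 mutants of the fit were below all WT mice, MT1383 was among them, and the log2 fold change was -1.06 ± 0.19 (SE, limma, adjusted p = 0.443). With MT1383 included it was -0.86 (limma, adjusted p = 0.552). In the other basal cells the log2 fold change was -0.30 ± 0.47, and the difference of -0.75 ± 0.36 did not pass the test (limma, adjusted p = 0.882). Against the other basal cells, Serpinb11 was higher in Basal8 in 5 of 5 mice, at 439 ± 188 against 128 ± 47.3 CPM.

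All 10 clade B serpins tested had negative log2 fold changes in mutants in the main fit, and 0 passed the test. Their median was -0.56 against -0.00 over all genes tested. Of the 10 serpins, 5 were lower without overlap between the 5 mice, as were 14.5% of all genes tested (Serpinb11, Serpinb5, Serpinb6b, Serpinb9 and Serpinb6a). The direction of single serpins depended on the setting. Positive values were found for 2 of 10 with equal cell numbers and 3 of 15 without a filter. It was 1 of 10 with quality weights and without WT mouse 1, 1 of 7 with thinned cells and 1 of 9 without WT mouse 2. None was positive in the other settings. The median was negative in every setting, from -0.86 without WT mouse 1 to -0.41 without a filter. In the other basal cells it was -0.28. The summed level of the clade in Basal8 was 1329, 1254 and 1615 CPM in WT mice 1, 2 and 3 and 812, 803 and 1004 CPM in MT1301, MT1306 and MT1383, of which Serpinb11 was a large part in each. In the other basal cells it was 796 to 968 CPM in WT mice and 764 to 798 CPM in mutants. Serpinb3a itself had a log2 fold change of -0.16 ± 0.36 (SE, limma, adjusted p = 0.940). The other markers did not differ beyond the spread either, with Upk3bl at 0.71 ± 0.38, Cwh43 at 0.12 ± 0.22, Aim2 at -0.09 ± 0.54 and Slc2a3 at -2.27 ± 1.34 (SE, limma, adjusted p of 0.772 or above). Of the keratins, Krt5 had a log2 fold change of -0.73 ± 0.39, Krt15 of 0.20 ± 0.21 and Krt4 of 0.65 ± 0.52 (SE, limma), none past the test.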

How the data were processed

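Libraries of tracheal cultures of 6 mice (3 WT, 3 DNAAF5 Mutant) were sequenced from droplets. The authors deposited raw UMI counts of 20483 genes in 23871 cells as whole numbers, with the cluster name, depth and mitochondrial percent of each cell. Cell Ranger is given as 7.1.0 and the build as mm10 in the submitters' processing notes; the study's methods give an earlier version. The authors stated limits of 2500 to 7500 genes and 25% mitochondrial UMIs, clustered with Seurat and named clusters by hand. No doublet caller was run here. Totals recomputed from the counts matched the deposited totals in every cell, 0 columns were unmapped, and 67 barcodes occurred in 2 or more libraries.

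Counts were summed per mouse and cluster and given as CPM (no length scaling). Levels of Basal8 used mice with at least 10 of its cells, and a pseudocount of 1 for log2 values; another cluster's mean used every mouse with at least 10 of its cells. Genotypes were compared with limma 3.58.1 (R 4.3.3): voom on summed counts, TMM factors computed with trims of 0.3 and 0.05, a filter that kept genes whose count reached 10 in a library of median size for 2 mice or more and summed to 15, two-sided, Benjamini-Hochberg over all genes tested. The difference against the other basal cells was fitted on per-mouse differences of log2 CPM. Shares were compared by exact permutation of the mice. The count-based tools were not used because the deposited table uses a 2-character separator and was recorded here as another unit. The genotype fit was also run on simulated counts with known changes. Their spread between mice was set and not estimated from these mice, so this does not show what the fit could detect here. The columns of the mutant mice carry numbers that match no animal number of the labels.

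Named genes were the marker lists, the 20 genes with the largest margin of Basal8 over the next cluster (at least 20 CPM in every mouse), the 10 lowest against the other basal cells (at least 50 CPM there in every mouse), the 5 lowest p per genotype direction without overlap, Dnaaf5 and Wdfy1. Both CPM floors covered all 6 mice, MT1383 included. Genes called without a mouse were named after their values were seen. The cluster, its markers, the lists and the alternatives added later were chosen with earlier results of these data known. The limma p-values set the difference between genotypes against the variation between these mice. The permutation p-values place the split by genotype among all splits of the 6 mice.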

Additional observations from a re-analysis of the deposited data

How the results depend on the processing

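No paired analysis was possible because the columns of the mutant mice carry no replicate number of the labels. The genotype fit called 0 genes under upper-quartile scaling, without a filter, with at least 10 counts in every mouse, under limma-trend, with quality weights, with thinned cells, with the stated cell filters, with 44 cells from every mouse and with all 6 mice (chosen after seeing the data). Leaving out 1 mouse gave 0 to 11 calls (11 without WT mouse 1, 2 without MT1306), and the difference against the other basal cells gave 0 under every alternative run. The mutant minus WT share of all cells was -0.18 to 2.34 percentage points without 1 mouse (-0.18 without MT1301), and -0.37 on the log2 scale, so its direction rests on the scale and on MT1301. The share of basal cells was 0.0925 to 5.68 without 1 mouse and -0.15 on the log2 scale. With thinned cells, 861 genes were higher and 1586 lower than in the other basal cells in every mouse, against 1367 and 2396, with fewer UMIs per gene, and the mean log-normalized value per cell gave 1834 and 1974. Without 1 mouse (chosen after seeing the data) there were 1533 to 1687 and 2541 to 3343. MT1383 is limited by its 9 cells.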

Other observations

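Some gene groups of Basal8 remain to be described, and their counts stand beside 13.8% of all genes higher and 24.2% lower than in the other basal cells in every mouse. Of 72 ribosomal protein genes, 62 were lower in Basal8 than in the other basal cells in every mouse, and their summed level was 109732 ± 17241 CPM against 149266 ± 6305 CPM (SD, n = 5). Of 13 mitochondrially encoded genes, 12 were higher in every mouse. Of 12 targets of Nrf2, the regulator of the antioxidant response, 3 were higher in every mouse, namely Srxn1, G6pdx and Gstm1, and 1 was lower, the glutathione synthesis gene Gclm. G6pdx, which feeds the pentose phosphate pathway, was 203 ± 26.5 CPM against 122 ± 26.0 CPM without overlap, and its mean was the highest of the clusters, next to 193 CPM in Basal5. Of 10 inflammasome genes, 1 was higher in every mouse (Aim2) and 2 were lower, including the adaptor Pycard at 89.6 ± 15.1 against 179 ± 30.9 CPM. Of 15 glycolysis genes, 4 were higher in every mouse and 2 were lower, the hexokinase Hk2 and the lactate dehydrogenase Ldha. The inflammasome and glycolysis counts are small and are given as values only.

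By genotype, 9 of 9 interferon response genes had negative log2 fold changes in the mutants of the fit (median -0.35) and 12 of 14 hypoxia-induced genes had positive ones (median 0.30), with 0 genes past the test in either. Of all 9789 genes tested, 4940 were negative and 4849 positive. Without overlap, 2 interferon genes were lower and 1 hypoxia gene higher, beside 14.5% and 7.27% of all genes. Of 12 immediate early and heat shock genes, 10 had positive values (median 0.28) and 5 were higher without overlap, with 0 past the test. Without WT mouse 3 the hypoxia median was 0.11, and without MT1306 2 of 10 interferon genes were positive. None of these medians changed sign in any setting. In the other basal cells the medians were -0.33 for interferon, 0.11 for hypoxia and 0.09 for immediate early and heat shock genes. The summed interferon level of MT1383, 775 CPM, lay within the 602 to 887 CPM of WT mice. The summed hypoxia level was 684 CPM in MT1306 and 750 CPM in WT mouse 1. Of 72 ribosomal protein genes, 70 had positive values (median 0.26), and without WT mouse 1 there were 55 (median 0.10). WT mouse 1 had the lowest summed ribosomal level in Basal8, 82618 CPM against 103479 to 123637 CPM in the other 5 mice.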
